A study of Mus musculus with 6 samples.

Results

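The 10 genes described here encode carriers that move amino acids across the plasma membrane: Slc3a2, Slc7a1, Slc7a2, Slc7a3, Slc7a5, Slc7a11, Slc38a2, Slc1a4, Slc1a5 and Slc6a9. They were taken by name, and their probe sets are those that the platform annotation assigns to these genes alone, 15 of the 22626 probe sets tested and 10 of the 12393 genes measured. A probe set is a group of short array probes that together measure one transcript. 7 of the genes had 1 probe set and 3 had several.

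Total RNA from a mouse cell line named PPP3R1 was hybridised to 6 arrays. 3 arrays came from cells of the line starved for 6 h, and 3 came from control cells in normal medium. PPP3R1 is the symbol of the regulatory B subunit of calcineurin, a calcium-dependent phosphatase, but how that gene was altered in the line, if at all, cannot be read from the labels. They also disagree on the control: the titles and the design text name the same PPP3R1 line, whereas the growth and treatment protocols name wild-type mouse embryonic fibroblasts, so a difference between lines and an effect of starvation cannot be told apart if the protocols are right. Groups follow the titles. The sources used here do not name what the starvation medium lacked. The titles call the samples biological replicates without naming separate cultures, so the tests measure the spread among these 6 arrays, which may be technical. In RNA from a whole culture, fewer cells of a kind and less RNA per cell cannot be told apart.

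Amino acid carriers fall into a few mechanistic classes. The heavy chain CD98 (Slc3a2) is a glycoprotein that brings light chains of the SLC7 family to the cell surface through a disulfide bond, and the light chain does the transport. The cationic carriers of the same family work without a heavy chain, and the SLC38, SLC1 and SLC6 carriers use the sodium gradient. When uncharged tRNA accumulates, the kinase GCN2 phosphorylates eIF2alpha and translation of the transcription factor ATF4 increases. ATF4 binds composite C/EBP-ATF response elements, and several carrier genes are among its known targets.

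Promoter windows of RefSeq (mouse build GRCm38.p6, 250 bases before to 50 after a gene's start, 300 bases in all) were at hand for 6 of the 10 genes, in 9 windows. Each was searched on both strands for TGATGNAA, the letters of the C/EBP-ATF element, for TGACNNNGC, the core of the antioxidant response element, and for CACGTG, the E-box bound by MYC. 2 of the windows held the C/EBP-ATF letters, and they are shown because one belongs to a gene that rose and the other to a gene that fell. Capitals mark the matches, and both genes lie on the minus strand, written 5′ to 3′ in the direction of the gene, at chr3:50443564-50443863 for Slc7a11 and chr11:20332664-20332963 for Slc1a4.
Slc7a11: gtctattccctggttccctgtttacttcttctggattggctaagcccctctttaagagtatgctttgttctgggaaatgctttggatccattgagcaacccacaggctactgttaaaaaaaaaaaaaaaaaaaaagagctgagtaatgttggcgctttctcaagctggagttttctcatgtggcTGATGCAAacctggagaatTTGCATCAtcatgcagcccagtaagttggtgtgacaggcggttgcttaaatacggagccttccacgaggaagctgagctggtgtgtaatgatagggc
Slc1a4: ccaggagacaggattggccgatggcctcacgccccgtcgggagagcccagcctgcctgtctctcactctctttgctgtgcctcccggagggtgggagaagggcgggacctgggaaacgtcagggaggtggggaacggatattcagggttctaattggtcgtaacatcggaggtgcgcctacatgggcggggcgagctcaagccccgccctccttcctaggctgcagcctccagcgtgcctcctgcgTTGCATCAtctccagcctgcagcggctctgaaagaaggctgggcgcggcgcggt

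In the Slc7a11 window the matches began 66 and 47 bases before the start, once on each strand. In the Slc1a4 window the single match began 4 bases before the start and ran across it. The C/EBP-ATF letters were found in 3.97% of all 32851 windows of the same length. The antioxidant letters were found in windows of Slc7a1, Slc38a2 and Slc6a9 and in 12.4% of all windows. No window of these genes held the E-box, which 7.15% of all windows held. A match of letters is a description of the sequence and does not show that a factor was bound. Sequence outside the windows was not searched, so a window without a match does not show that the gene lacks the element.

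Carriers moved in both directions in starved cells. Of the 15 probe sets, 6 were higher and 6 lower at an adjusted p under 0.05 (limma, Benjamini-Hochberg over all probe sets), 40% each, where 20.3% of all probe sets were higher and 19.2% lower. The 6 lower sets all belong to Slc7a2 and Slc1a4, so they repeat 2 genes. Taken by the brightest probe set of each gene, 5 of 10 genes rose (Slc3a2, Slc7a5, Slc7a11, Slc7a3 and Slc6a9), or 50%. 2 fell (Slc7a2 and Slc1a4), or 20%. Of all genes 20.8% rose and 20.1% fell, so the share of carriers that fell is near that of all genes. Slc7a1, Slc38a2 and Slc1a5 did not pass. The starved and control arrays did not overlap in 13 of the 15 probe sets, or 86.7%, against 50.4% of all probe sets. These 13 also include several sets of the same gene.

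**Figure D1:**
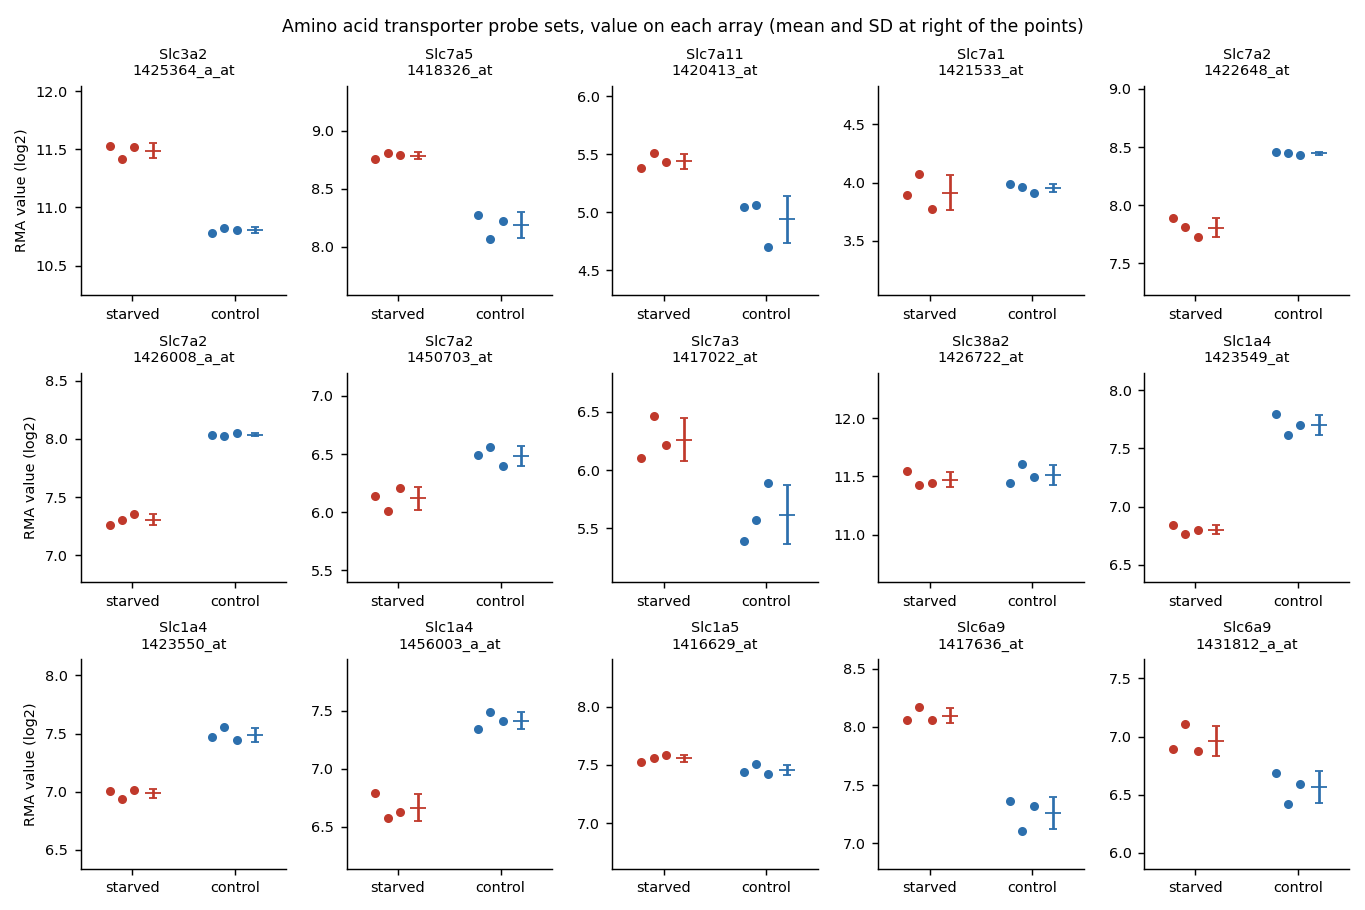
RMA value (log2) on each array for the 15 probe sets, with starved arrays at the left in red and control arrays at the right in blue, and the mean and SD (n = 3 per group) beside the points; every panel spans the same height. The groups overlap in the panels of Slc7a1 and Slc38a2.

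The sizes were moderate. The called changes lay between 0.37 and 0.90 in absolute log2 units, and the called genes differed between the groups by 1.41-fold to 1.87-fold. The median absolute change was 0.62 over the 10 genes and 0.16 over all genes, while the median standard error was 0.07 for both. The central 90% of all probe sets changed by -0.58 to 0.62. Level percentiles and level limits given below describe array signal only. They are not read as RNA amounts of one gene against another, since probe sets differ in brightness for reasons other than RNA amount.

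**Figure D2:**
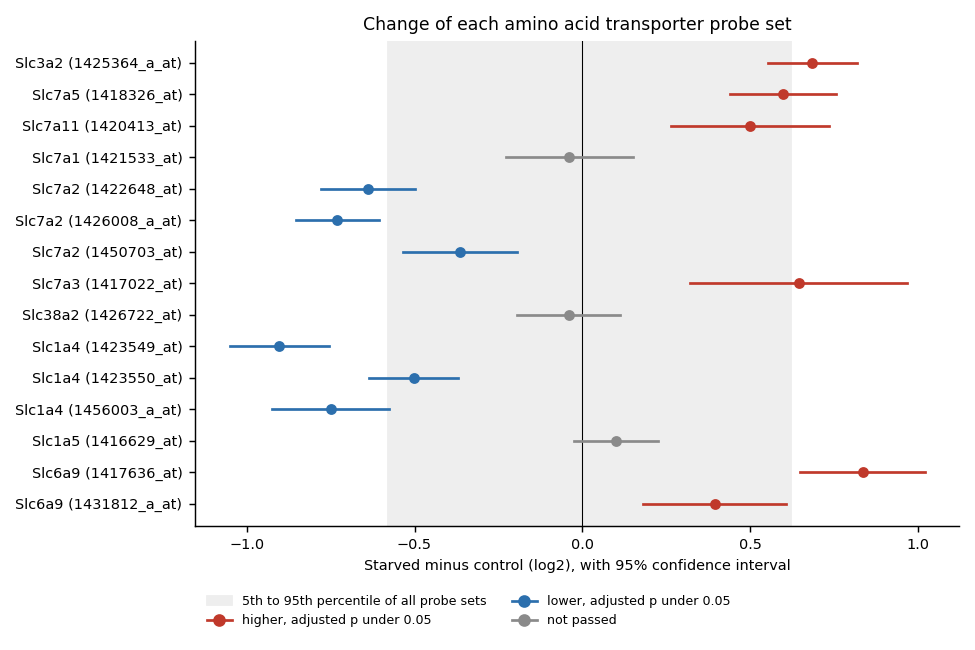
Change of each probe set (starved minus control, log2) with its 95% confidence interval, red where higher, blue where lower and grey where not passed; the shaded band runs from the 5th to the 95th percentile of all probe sets (-0.58 to 0.62). The intervals of Slc7a1, Slc38a2 and Slc1a5 cross 0.

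The CD98 heavy chain gene Slc3a2, which serves several light chains, (probe set 1425364_a_at) gave values of 11.53, 11.41 and 11.52 on the starved arrays, against 10.78, 10.83 and 10.81 on the control arrays (log2). Every starved array lay above every control array, with a gap of 0.59 between the lowest starved and the highest control value. Slc3a2 rose by 0.69 ± 0.06 (SE, n = 3 per group), or 1.61-fold, with an adjusted p of 6.24e-05. Its level was at the 95.4th percentile of all probe sets and its absolute change at the 92.4th. Its promoter window held none of the 3 motifs, and sequence outside that window was not searched.

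Both light chain genes on the list that pair with CD98 rose as well. Slc7a5 encodes LAT1, which exchanges intracellular glutamine for leucine and other large neutral amino acids. Its probe set 1418326_at measured 8.75, 8.81 and 8.79 on the starved arrays, against 8.27, 8.06 and 8.22 on the control arrays. The groups were separated by 0.48, and Slc7a5 rose by 0.60 ± 0.07 (1.51-fold, adjusted p = 0.000292). Slc7a11 encodes xCT, which imports cystine in exchange for glutamate and so supplies cysteine for glutathione. Its probe set 1420413_at measured 5.38, 5.51 and 5.43 on the starved arrays, against 5.05, 5.07 and 4.70 on the control arrays.

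The groups of Slc7a11 did not overlap, but its signal was weak, with a control mean of 4.94 ± 0.20 (SD, n = 3) that is under the level of 5 taken here as dim. Slc7a11 rose by 0.50 ± 0.10 (adjusted p = 0.00533), and without control replicate 3, the lowest array, the change was 0.38 with an adjusted p of 0.00440. On each array the difference of Slc7a5 from Slc3a2 was then set to a mean of 0 over the control arrays. That difference was -0.16 to 0.01 on the starved arrays, against -0.14 to 0.11 on the control arrays. The starved and control ranges of this difference overlapped. For Slc7a11 and Slc3a2 the same difference was -0.29 to -0.04 on the starved arrays, against -0.24 to 0.13 on the control arrays. These pairs were chosen after the values were seen, and no test was made of them.

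The cationic carriers import arginine, lysine and ornithine, and their probe sets went in opposite directions. Slc7a2 encodes CAT2, whose transcript is known to be regulated in macrophages by cytokines. Its probe set 1422648_at measured 7.89, 7.81 and 7.72 on the starved arrays, against 8.46, 8.45 and 8.43 on the control arrays. Probe set 1426008_a_at measured 7.26, 7.31 and 7.35 on the starved arrays, against 8.04, 8.02 and 8.05 on the control arrays. Starved arrays were lower than every control array on both.

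The third Slc7a2 probe set, 1450703_at, measured 6.14, 6.01 and 6.21 on the starved arrays, against 6.49, 6.56 and 6.40 on the control arrays. The probe sets fell by 0.64 ± 0.06 (adjusted p = 0.000114), 0.73 ± 0.05 (3.45e-05) and 0.37 ± 0.07 (0.00504) in the order given. All 3 moved the same way, and the mean over the 3 fell by 0.58 ± 0.05 (adjusted p = 4.78e-05).

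Slc7a3 encodes CAT3, a carrier of the same substrates best known from brain. Its probe set 1417022_at measured 6.10, 6.46 and 6.22 on the starved arrays, against 5.39, 5.57 and 5.89 on the control arrays. The groups did not overlap, although the 3 control arrays spread over a wider range than those of most members. Slc7a3 rose by 0.64 ± 0.14 (1.56-fold, adjusted p = 0.00721). Its SE was the largest of the 15 probe sets, and under limma without moderation the adjusted p was 0.0653.

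Set to a control mean of 0, the within-array difference of Slc7a3 from Slc7a2 was 1.04 to 1.49 on the starved arrays, against -0.24 to 0.29 on the control arrays. This pair was chosen after its values were seen, so the difference restates the opposite calls of the genes, and it was not tested. Slc7a1 encodes CAT1, the widely expressed member, and its transcript is a known target of the amino acid response. Its probe set 1421533_at measured 3.89, 4.07 and 3.77 on the starved arrays, against 3.98, 3.96 and 3.91 on the control arrays. The groups overlapped, and the level, at the 19.0th percentile, was too dim for a change to be well resolved. Slc7a1 differed by -0.04 ± 0.08 without passing (adjusted p = 0.758), with a 95% confidence interval of -0.23 to 0.15.

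**Figure D3:**
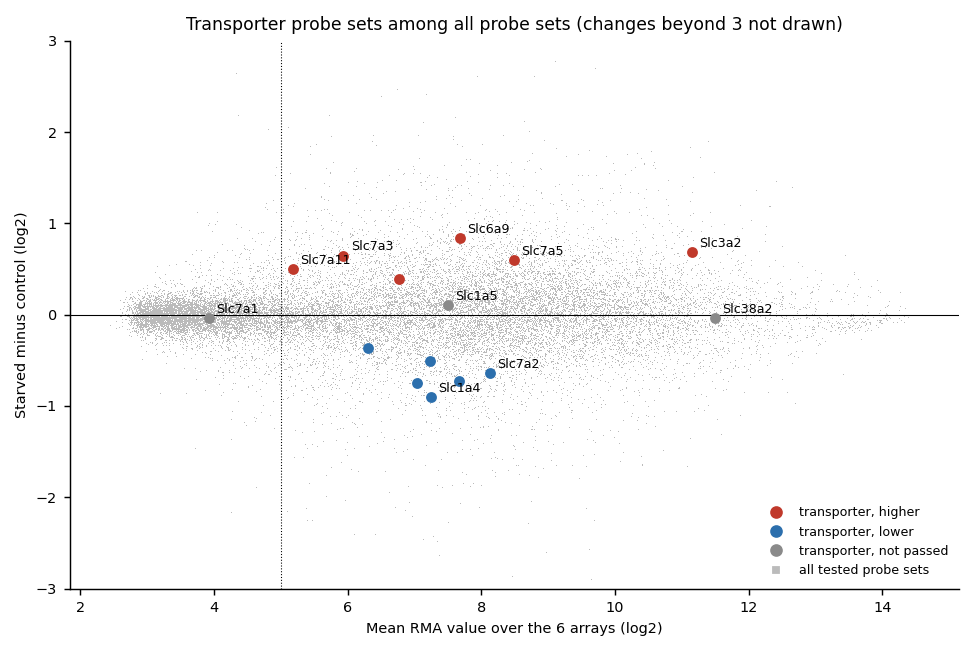
Mean RMA value over the 6 arrays (log2, horizontal) against change (starved minus control, log2, vertical) for all tested probe sets in light grey and the transporter probe sets in colour, with a dotted line at the level of 5. Slc7a1 lies left of the line, and Slc3a2 and Slc38a2 lie at the bright end.

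Among the sodium-coupled carriers of neutral amino acids, Slc6a9 rose, Slc1a4 fell, and Slc38a2 and Slc1a5 did not pass. Slc6a9 encodes GLYT1, a glycine carrier known for clearing glycine around synapses and for supplying it to red cell precursors. Its brighter probe set 1417636_at measured 8.06, 8.17 and 8.06 on the starved arrays, against 7.36, 7.11 and 7.32 on the control arrays. It rose by 0.83 ± 0.08 (1.78-fold, adjusted p = 0.00012), the largest estimated rise of the 10 genes by their brightest probe sets. Its dimmer probe set 1431812_a_at measured 6.89, 7.11 and 6.88 on the starved arrays, against 6.69, 6.42 and 6.59 on the control arrays. That set rose by 0.39 ± 0.09 (adjusted p = 0.0102), and its call was lost without moderation (adjusted p = 0.0607). Starved arrays were above control arrays on both sets, and the mean of the 2 rose by 0.61 ± 0.08 (adjusted p = 0.00057).

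Slc1a4 encodes ASCT1, an exchanger of alanine, serine, cysteine and threonine. Probe set 1423549_at measured 6.84, 6.76 and 6.79 on the starved arrays, against 7.79, 7.62 and 7.70 on the control arrays. It fell by 0.90 ± 0.06 (1.87-fold lower, adjusted p = 2.92e-05), the largest estimated change of the 15 probe sets. Probe set 1456003_a_at measured 6.79, 6.57 and 6.63 on the starved arrays, against 7.34, 7.49 and 7.41 on the control arrays, a fall of 0.75 ± 0.08 (adjusted p = 0.000158). Every starved array lay below every control array on both.

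The third Slc1a4 probe set, 1423550_at, measured 7.01, 6.94 and 7.01 on the starved arrays, against 7.47, 7.55 and 7.44 on the control arrays. It fell by 0.50 ± 0.06 (adjusted p = 0.000303), and the mean of the 3 fell by 0.72 ± 0.05 (adjusted p = 2.71e-05). The promoter windows of Slc1a4, which fell, and Slc7a11, which rose, both hold the C/EBP-ATF letters shown above. Slc1a5 encodes ASCT2, the glutamine exchanger of the same family. Its probe set 1416629_at measured 7.53, 7.56 and 7.59 on the starved arrays, against 7.44, 7.51 and 7.43 on the control arrays.

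The groups of Slc1a5 were separated by 0.02, and its change of 0.10 ± 0.05 did not pass (adjusted p = 0.192, 95% confidence interval -0.03 to 0.23). With the control mean set to 0, the within-array difference of Slc1a4 from Slc1a5 was -1.04 to -0.93 on the starved arrays, against -0.13 to 0.11 on the control arrays. This pair too was chosen after its values were seen, and the difference between the genes was not tested. Slc38a2 encodes SNAT2, which takes up small neutral amino acids and is a textbook gene of the amino acid response. Its probe set 1426722_at measured 11.55, 11.43 and 11.44 on the starved arrays, against 11.44, 11.61 and 11.49 on the control arrays. The groups overlapped at a bright level, the 96.5th percentile, and the difference of -0.04 ± 0.07 did not pass (adjusted p = 0.684). The 95% confidence interval of -0.19 to 0.11 leaves room for small changes in either direction.

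**Figure D4:**
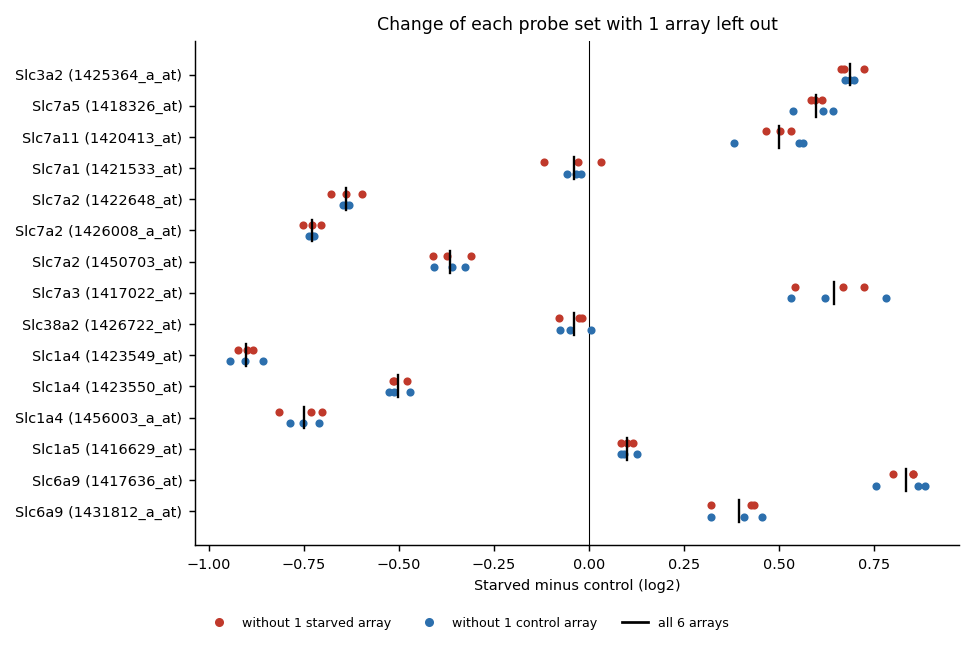
Change of each probe set (starved minus control, log2) with all 6 arrays and with each array left out in turn. The points of each called probe set stay on one side of 0, and those of Slc7a1 and Slc38a2 lie on both sides.

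6 lists named 59 other amino acid carriers, of which 40 were measured. 4 rose (10%, under the 20.8% of all genes) and 9 fell (22.5%, near the 20.1% of all genes). 17 of the 40 were under the level of 5 in both groups, including 6 of the 8 other heteromer genes and 7 of the 9 SLC6 genes, so a missing call there says little. Of the 23 at or over 5 in either group, 3 rose and 8 fell. The shares of all genes at that level were not computed. The median change was -0.05 over the 40 genes, against 0.30 over the 10 carriers and -0.01 over all genes. 4 of the 13 called genes kept their call under all 16 alternative settings: Slc1a6, Slc25a13, Slc25a15 and Sfxn3.

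Of the other light and heavy chains, Slc7a6, the y+LAT2 light chain of CD98, averaged 8.13 ± 0.04 in starved and 8.38 ± 0.07 in control cells (SD, n = 3 each) and fell by 0.25 ± 0.06 (adjusted p = 0.0105). Its other probe set fell by 0.74 ± 0.08. Slc7a12 rose by 0.27 ± 0.07 from a level under 5 in both groups, and its call was lost without control replicate 1 or 2 or starved replicate 1 or 3 (adjusted p of 0.0507 to 0.0625). Slc7a7 (y+LAT1) differed by -0.05 ± 0.08 and Slc7a10 (Asc-1) by 0.36 ± 0.12 without passing. In the SLC38 list, 0 of 5 measured genes were called. Slc38a10 differed by -0.03 ± 0.07 on its brightest probe set, while one under 5 in both groups fell by 0.33 ± 0.08. Slc38a4 differed by -0.17 ± 0.09 on its brighter probe set, while a dimmer one fell by 0.30 ± 0.07.

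In the SLC1 family, Slc1a6, a glutamate carrier known from Purkinje cells, averaged 9.71 ± 0.03 in starved and 8.75 ± 0.12 in control cells (SD, n = 3 each). Slc1a6 rose by 0.96 ± 0.07 (adjusted p = 3.63e-05). Slc1a2, a glutamate carrier of glia, was under 5 in both groups and fell by 0.20 ± 0.06, a call lost without any single array except control replicate 1 (adjusted p of 0.0528 to 0.112). Slc1a3, also a glutamate carrier, differed by 0.07 ± 0.09 and Slc1a1 by 0.18 ± 0.09, neither passing. Slc6a6, the taurine carrier, averaged 9.04 ± 0.19 in starved and 9.41 ± 0.03 in control cells and fell by 0.37 ± 0.09 (adjusted p = 0.0139), but the call was lost without moderation (adjusted p = 0.0724) and 2 other probe sets of the gene did not pass. Slc6a17 differed by 0.03 ± 0.11 and Slc6a5 by -0.14 ± 0.07.

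The lysosomal cystine exporter Ctns fell by 0.41 ± 0.06 (adjusted p = 0.00111), and the lysosomal histidine and peptide carrier Slc15a4 rose by 0.42 ± 0.08 (adjusted p = 0.00505). Slc7a4 differed by 0.03 ± 0.08 and Slc66a1 by -0.18 ± 0.08. Of 10 measured mitochondrial carriers, 5 fell (50%) and 1 rose (10%), where 20.1% of all genes fell and 20.8% rose. The ornithine carrier Slc25a15 fell by 0.74 ± 0.06, the aspartate-glutamate carrier Slc25a13 by 0.65 ± 0.08 and the glycine carrier Slc25a38 by 0.31 ± 0.08, the last losing its call without moderation (adjusted p = 0.0563). Sfxn3 rose by 0.54 ± 0.07, while its relative Sfxn1, a serine carrier, fell by 0.17 ± 0.05, a call lost when any single array was left out (adjusted p of 0.0527 to 0.129). Slc25a39 differed by 0.14 ± 0.06 on its brightest probe set without passing, while a dimmer one rose by 0.22 ± 0.06 (adjusted p = 0.0169).

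**Figure D5:**
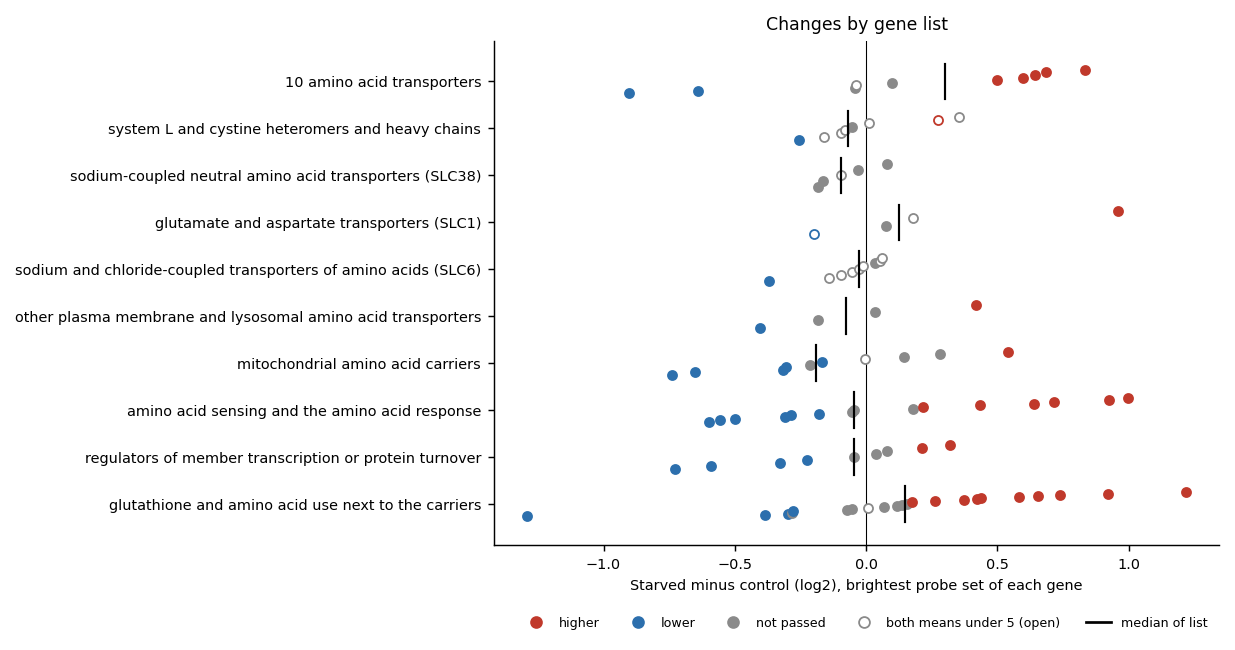
Change of each measured gene (starved minus control, log2, brightest probe set) by list, red where higher, blue where lower and grey where not passed, with open points for genes under the level of 5 in both groups and a bar at the median of each list. The bar of the 10 transporters stands at 0.30, and those of the other carrier lists stand between -0.19 and 0.13.

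Genes of the amino acid response also moved in both directions, with 6 of 15 measured genes higher and 6 lower, 40% each, where 20.8% of all genes rose and 20.1% fell. Asns, the asparagine synthetase known as a target of ATF4, averaged 11.33 ± 0.02 in starved and 10.33 ± 0.04 in control cells (SD, n = 3 each) and rose by 1.00 ± 0.05 (adjusted p = 8.25e-06). Ddit3, which encodes CHOP, rose by 0.92 ± 0.06, the stress factor Atf3 by 0.71 ± 0.12 and the leucyl-tRNA synthetase Lars by 0.64 ± 0.06. Atf4 itself differed by -0.05 ± 0.06 without passing (adjusted p = 0.576). Its transcript does not report its protein, which is controlled in translation. Cebpb, a partner of ATF4 in binding DNA, fell by 0.60 ± 0.06. Impact, an inhibitor of GCN2, fell by 0.56 ± 0.05 and Castor2, of the arginine-sensing CASTOR family, by 0.50 ± 0.09. The GCN2 gene Eif2ak4 fell by 0.31 ± 0.08, a call lost without moderation (adjusted p = 0.0606). Trib3, another known target of ATF4, fell by 0.29 ± 0.07 (adjusted p = 0.013), and Chac1, also a target, differed by -0.05 ± 0.06 without passing. Atf5 and Sesn2 of the same list rose by 0.44 ± 0.06 (adjusted p = 0.000716) and 0.22 ± 0.06 (0.0217). The call of Sesn2 was lost without control replicate 2 or starved replicate 1 or 3 (adjusted p of 0.0544 to 0.0732). Cebpg fell by 0.18 ± 0.05, a call lost without any single array except starved replicate 2. Ppp1r15a differed by 0.18 ± 0.06 without passing.

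Among 9 measured regulators of these carriers' transcription or turnover, 2 rose (22.2%, near the 20.8% of all genes) and 4 fell (44.4%, where 20.1% of all genes fell). Nedd4l, a ubiquitin ligase known to act on membrane carriers, rose by 0.32 ± 0.06, while its relative Nedd4 differed by -0.05 ± 0.06. Mycn fell by 0.73 ± 0.08, Hif1a by 0.59 ± 0.08 and Nfe2l2, which encodes the antioxidant factor NRF2, by 0.33 ± 0.05. Other Mycn probe sets, under 5 in both groups, differed by -0.15 and -0.02 without passing. Myc, a known activator of Slc7a5 and Slc1a5, fell by 0.22 ± 0.06 (adjusted p = 0.0145). Without starved replicate 2 or 3 its adjusted p was 0.0553 or 0.0504. Bach1, a repressor of antioxidant genes, differed by 0.08 ± 0.05 on its brighter probe set without passing and rose by 0.46 ± 0.07 on a dimmer one.

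Markers of fibroblasts were bright, with 9 of 11 above 10 in both groups; Thy1 was under 5. Of the 11, 3 rose (27.3%) and 4 fell (36.4%), where 20.8% of all genes rose and 20.1% fell. Changes were 0.57 for Col1a1, 0.25 for Vim, 0.23 for Fn1, -2.05 for Lum, -0.81 for Pdgfrb, -0.28 for Pdgfra and -0.19 for Dcn. The call of Fn1 was lost without control replicate 1 or 2 or starved replicate 1 or 2 (adjusted p of 0.0531 to 0.0654). That of Dcn was lost without control replicate 1 or 2 or starved replicate 2 or 3 (adjusted p of 0.0822 to 0.125). Of 25 measured markers of 6 other cell types, 16 were under 5 in both groups, 6 rose and 0 fell by limma. The 6 are 24% of the list, near the 20.8% of all genes that rose, while 20.1% of all genes fell. The pluripotency gene Nanog rose by 1.18, while Pou5f1 and Zfp42 of the same list were under 5 in both groups and differed by 0.11 and -0.14 without passing. The neuronal Map2 rose by 0.74 and Tubb3 by 0.46, while Gfap and Olig2 of the same list were under 5 in both groups and did not pass. The macrophage marker Cd68 rose by 0.43, the epithelial Cdh1 by 0.50 and the endothelial Pecam1 by 0.24. Cdh1 and Pecam1 were under 5 in both groups, and the call of Pecam1 was lost without control replicate 1 or 3 or starved replicate 2 or 3. The log2 values of each list were also summed per array. The sum of the 4 neural and glial markers was 20.11 to 20.38 on starved and 18.65 to 19.23 on control arrays. Ranges also stayed apart for the fibroblast list (128.35 to 128.645 starved, 130.314 to 130.556 control). So did those of the epithelial (21.93 to 22.62, 21.46 to 21.89) and pluripotent lists (12.59 to 12.86, 11.34 to 12.05). Ranges of the endothelial and muscle lists overlapped. That of the 6 leukocyte markers was 27.28 to 27.44 on starved and 26.43 to 28.00 on control arrays. The pan-leukocyte marker Ptprc was at 3.03 in starved and 3.07 in control cells. The difference of the 3 prime from the 5 prime probe sets of Gapdh averaged -0.13 on starved and -0.05 on control arrays (exact permutation test, two-sided p = 0.1, the smallest 3 against 3 can give). For Actb it averaged 0.05 on both (exact permutation p = 0.7). The part of these in the carrier results was not tested. Array medians were 6.74 to 6.78, and arrays correlated at 0.998 within and 0.986 to 0.988 between groups.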

How the data were processed

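The authors deposited log2 values, 1 per probe set and array. RMA and the affy package made them, per the submitters' processing notes; the sources used here give no versions. RMA includes quantile normalization, which would hide a shift shared by most transcripts. Of the deposited 22690 probe sets, 0 lacked a value and 64 control sets were left out. The annotation gave 1 gene for 20380 of the tested sets, several for 691 and none for 1555. Groups were fitted without covariates by lmFit and eBayes of limma 3.58.1 (R 4.3.3, two-sided). Adjustment was by Benjamini-Hochberg over 22626 probe sets, with a threshold of 0.05, and a gene was represented by its brightest probe set. The number of arrays limits the precision, and no batch is named in the labels.

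The 10 genes, the lists and the motifs were chosen with earlier results of these data known. From each list the rule took up to 4 called genes by change and up to 2 others by level, with Atf4, Asns, Ddit3, Gclc, Gclm and Myc always. Impact, Castor2, Eif2ak4, Trib3, Chac1, Atf5, Sesn2, Cebpg, Ppp1r15a, Psph, Shmt1 and the cell type markers given were named after their values were seen. Genes with a pattern like a carrier's were not searched for, since 6 arrays in 2 groups would only restate the group difference. Tested on simulated data for this comparison, with 200 of 22626 probe sets changed, the fit found 56% of the 100 that differed by 0.5 and 96% of the 100 that differed by 1, with 3.80% of its calls false. In the data 8933 probe sets were called, far more than were changed in the simulation. The adjustment depends on that number, so these shares need not hold for the data. Alternatives covered filters, normalization, moderation, weights, thresholds, a replicate block and leaving out each array. Plots were made in Python 3.11.15 using matplotlib 3.10.9.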

Additional observations from a re-analysis of the deposited data

How the results depend on the processing

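Of 249 values for the 15 probe sets under 17 settings, 240 kept their direction and side of the threshold, 7 lost the call and 2 changed sign. Filters, moderation, thresholds and the replicate block alter the test but leave the change itself as it was. The change could differ only with centring, the second normalization, array weights or an array left out. 9 probe sets stayed the same under every setting run. With each array left out in turn, Slc7a1 ranged from -0.12 to 0.032 and Slc38a2 from -0.078 to 0.0053, both without a call; the positive values came without starved replicate 3 for Slc7a1 and without control replicate 2 for Slc38a2. No single array ended a call of the 10 carriers. When each change was tested against a size of 0.25 in place of 0 (limma treat), 3 probe sets were called higher in place of 6 and 3 genes in place of 5. Slc7a11 (adjusted p = 0.112), Slc7a3 (0.0704), Slc6a9 1431812_a_at (0.349) and Slc7a2 1450703_at (0.348) lost their calls. Their estimated changes of 0.50, 0.64, 0.39 and -0.37 stayed as they were, beyond 0.25 in absolute size. Adjusted over 1 probe set per gene, 2 probe sets were lower in place of 6, because by construction only 10 of the 15 remain. At a threshold of 0.01, Slc6a9 1431812_a_at was not called. Without moderation 4 probe sets and 4 genes were higher. With a replicate block the counts stayed at 6 and 6 probe sets and 5 and 2 genes, and 8168 in place of 8933 probe sets were called in all. Deviations from the group means correlated at -0.09, 0.01 and -0.01 between same-numbered arrays. No shared deviation was seen, which does not tell whether same-numbered cultures were handled together. Centring and a second quantile normalization left the counts as they were. On the deposited values the median change of all probe sets was -0.01. Dim probe sets such as Slc7a1 and Slc7a11 limit what these arrays resolve.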

Other observations

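A further list held enzymes of glutathione and amino acid metabolism. Of 22 measured genes of this list, 10 rose (45.5%, where 20.8% of all genes rose) and 4 fell (18.2%, near the 20.1% of all genes), with a median change of 0.15. Gclm and Gclc, the modifier and catalytic subunits of the enzyme that joins glutamate and cysteine, rose by 0.92 ± 0.08 and 0.42 ± 0.07 (adjusted p = 6.39e-05 and 0.00191; n = 3 per group). Cth, which makes cysteine from cystathionine, averaged 5.86 ± 0.08 in starved and 7.15 ± 0.13 in control cells and fell by 1.29 ± 0.08 (adjusted p = 1.76e-05).

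The serine synthesis genes Phgdh and Psat1 rose by 0.65 ± 0.06 and 0.44 ± 0.06, while Psph, the last enzyme of that pathway, differed by 0.16 ± 0.09 without passing (adjusted p = 0.202). Shmt2, which splits serine into glycine in mitochondria, rose by 0.74 ± 0.06. Its cytosolic counterpart Shmt1 fell by 0.28 ± 0.08 (adjusted p = 0.0294), a call lost without starved replicate 2 or any 1 control replicate (adjusted p of 0.0507 to 0.0876). Odc1, which makes putrescine from ornithine, averaged 10.41 ± 0.03 in starved and 9.19 ± 0.04 in control cells and rose by 1.22 ± 0.05 (adjusted p = 4.37e-06). Carriers of ornithine went both ways. The arginine and ornithine carrier Slc7a2 and the mitochondrial ornithine carrier Slc25a15 fell, and Slc7a3, a carrier of the same substrates as Slc7a2, rose by 0.64 ± 0.14. These values are limma estimates of log2 differences adjusted over all probe sets.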
